A study of Mus musculus with 36 samples.

Results

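The 10 genes described here, Stra6, Rdh10, Aldh1a2, Crabp1, Crabp2, Cyp26b1, Rara, Rarb, Rarg and Rxra, were taken by symbol from the 40205 features of the count tables, and all 10 were found. They were compared between neural stem cells (NSCs) and the extracellular vesicles (EVs) that these cells secreted, between ethanol doses and between the sexes. NSCs came from the dorsal telencephalon of C57BL/6J mouse fetuses at gestational day 12.5, with the tissue of a pregnancy pooled by sex and grown as neurospheres. The mice were of the Ai14 line, which carries a reporter, in every group. Each of 3 pregnancies (sets 3, 4 and 5) gave 1 culture per sex, and each culture was divided over 5 days of no ethanol (control), of ethanol at 120 mg/dL, called moderate, and of ethanol at 320 mg/dL, called heavy. Each of the 6 cultures gave 1 cell and 1 EV library per dose, 36 libraries in all. Each sex is thus represented by 3 cultures that had been passaged as neurospheres, and not by single fetuses.

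Retinoic acid is the active form of vitamin A. Cells take up retinol, which the membrane receptor encoded by Stra6 can import. Retinol dehydrogenases such as Rdh10 oxidise it to retinaldehyde, and retinaldehyde dehydrogenases such as Aldh1a2 (Raldh2) make retinoic acid from that. The binding proteins Crabp1 and Crabp2 carry retinoic acid in the cytoplasm, and Cyp26b1 breaks it down. The nuclear receptors Rara, Rarb and Rarg bind it and act on DNA as pairs with a retinoid X receptor such as Rxra. In the embryonic forebrain much of the ligand is known to come from the meninges and other neighbouring tissues. Ethanol is also oxidised by alcohol and aldehyde dehydrogenases, the enzyme classes that handle retinoids, and for this reason the pathway is often examined after prenatal alcohol exposure.

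Totals were 26.6 to 55.3 M counts (M, 1000000) in cell libraries and 0.959 to 5.51 M in EV libraries, and 6 EV libraries held under 2 M (set 3 female and set 4 female controls, set 3 male and set 4 female at 120 mg/dL, and the same cultures at 320 mg/dL). Levels below are TMM-scaled counts per M (CPM). TMM factors of cell libraries were 0.958 to 1.72, and those of EV libraries 0.383 to 1.15, with the set 4 female EV library at 320 mg/dL lowest. Of 10 NSC and radial glia markers, 9 had a median of 1 CPM or more in cells (Vim 1168, Slc1a3 892, Fabp7 721 and Nes 257 CPM), and their sum was 2583 to 4101 CPM per cell library. Sox2, a defining NSC marker, was listed at 0 in all 36 libraries. Xist, which female cells express, was listed at 0 as well, so a 0 was not read as absence. The Y-linked Kdm5d was at 38.3 to 52.4 counts per M of the library total in male cells and at 0.0614 to 0.352 in female cells. In EVs it was at 5.12 to 10.4 in males and at 0 to 1.47 in females, so by this gene every library matched its labelled sex. The Y-linked Uty was apart in EVs too, at 3.13 to 16.7 in males and 0 to 1.47 in females. Ddx3y and Eif2s3y overlapped in EVs. Each reached 3.08 in a female library, while the lowest male libraries were at 2.73 and 2.09. Oligodendrocyte lineage markers were also high in cells (296 to 587 CPM in sum, Olig1 256 CPM at the median). Of 7 meningeal and fibroblast markers only Foxc1 (18.5 CPM) reached 1 CPM, and Col1a1, Col1a2, Lum and Dcn were at 0.0602 to 0.391 CPM. In bulk libraries, fewer cells of a type and less RNA per cell cannot be told apart, and neither can fewer vesicles and less RNA per vesicle.

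Promoters of 8 of the 10 genes (16 promoters) were found among RefSeq promoters of the GRCm38.p6 assembly, each from 250 bases before to 50 after a start site. Rdh10 and Crabp2 were the members without an entry. They were searched for direct repeats of the half-sites AGGTCA or AGTTCA or GGTTCA or GGGTCA with spacers of 1, 2 or 5 bases (DR1, DR2 and DR5), on both strands. Pairs of retinoic acid and retinoid X receptors bind such repeats. One promoter of Rarb held a repeat, and it is shown because Rarb is both a receptor of the pathway and the textbook target of retinoic acid. It lies at chr14:16575427-16575726 on the minus strand of GRCm38.p6, and the DR5 in capitals begins 53 bases before the start site:

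Rarb promoter: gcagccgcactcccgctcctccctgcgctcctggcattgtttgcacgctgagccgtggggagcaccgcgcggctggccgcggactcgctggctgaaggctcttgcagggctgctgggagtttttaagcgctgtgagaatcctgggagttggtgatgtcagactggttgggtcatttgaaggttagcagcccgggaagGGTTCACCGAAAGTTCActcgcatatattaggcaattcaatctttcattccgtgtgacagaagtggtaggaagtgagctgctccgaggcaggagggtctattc

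Of 32851 promoters of the same length, 32 (0.0974%) held a DR5, 73 (0.222%) a DR1 and 88 (0.268%) a DR2. A match of letters is a description and not a bound site.

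Among the members, Rdh10, Rxra, Rara and Rarb had the highest levels per kilobase in cells and in EVs. Genes of the pathway outside the members were measurable as well, such as Rdh11 at a median of 33.6 CPM in cells. Cell and EV levels were first put in order per kilobase of annotated exon. In cells, Rdh10 was highest at 2.22 ± 0.432 CPM per kb (SD, n = 18 libraries), followed by Rxra at 1.58 ± 0.232, Rara at 1.04 ± 0.326 and Rarb at 0.847 ± 0.174. The next gene, Crabp2, was at 0.296 ± 0.15, and Rarb and Crabp2 were the only neighbours whose ranges were apart. Below it came Rarg at 0.218 ± 0.0758, Cyp26b1 at 0.169 ± 0.0828, Crabp1 at 0.105 ± 0.0424, Aldh1a2 at 0.0306 ± 0.0162 and Stra6 at 0.00802 ± 0.0055 CPM per kb. Aldh1a2, one of the enzymes that make retinoic acid, had 1 to 15 counts in a cell library, and Stra6 had 1 to 7. Of the other retinaldehyde dehydrogenase genes, which are not members, Aldh1a3 was at a median of 17.3 CPM in cells (2.19 to 62.1). Aldh1a1 was at 1.08 CPM (0.527 to 7.13).

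In EVs the order opened with a gap. Rdh10 was at 114 ± 40.1 CPM per kb, with its lowest library at 51.2, and the next gene, Rxra, reached 10.4 at most. After Rxra (4.94 ± 1.99 CPM per kb) came Rarb at 2.87 ± 1.66 and Rara at 2.45 ± 0.908, and the other 6 genes had means under 1. Beyond Rdh10, no neighbours in this order were apart.

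EVs were compared with cells to ask which transcripts differ between vesicles and the cells that release them. Between the locations 5 of the 6 testable members were higher in EVs, and Rdh10 by far the most. The test was edgeR's quasi-likelihood test with terms for sex and dose and a Benjamini-Hochberg adjusted p under 0.05. The test took the 36 libraries as independent, although they came from 6 cultures. It called 80.5% of the 15281 genes tested, 38.4% as higher in EVs and 42.2% as lower, so that a call alone is common here. The median log2 difference was 1.45 over the 6 members and -0.08 over all genes tested. Crabp1, Crabp2, Aldh1a2 and Stra6 had too few counts to be tested.

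Rdh10, which catalyses the first oxidation of retinol in the embryo, was at 6.76, 11.1 and 13.6 CPM (lowest, median and highest) in the 18 cell libraries and at 236, 508 and 941 CPM in the 18 EV libraries. Every EV library was above every cell library. These levels rest on 207 to 967 counts in cells and on 139 to 4007 counts in EVs. The log2 difference was 5.62 (SE 0.154, adjusted p = 1.47e-26), and 99.3% of the genes tested had a smaller one, Rdh10 being number 100 of 15281 from the top. Within single cultures, averaged over doses, EVs were 26.7 to 64.9 times as high as cells, in 6 of 6 cultures (exact sign-flip permutation test, two-sided p = 0.03125, the smallest that 6 cultures can give). With library totals as the scale the log2 difference was 4.86, and without the 6 EV libraries under 2 M it was 5.47. The gene lies at chr1:16175555-16203958 on the plus strand of GRCm39 (GENCODE), overlaps no other annotated gene, and shares no stretch of 31 bases of its transcripts with the transcripts of another gene. Shorter or inexact matches, and matches to sequence outside annotated transcripts, were not searched. Whether reads from elsewhere add to the Rdh10 counts was therefore not tested.

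The receptors stood far below Rdh10 and differed from each other little in this comparison. Rxra, the shared partner of the receptors, was at 8.17, 10.6 and 15.2 CPM in cells and at 14.3, 33.1 and 71.3 CPM in EVs, with a log2 difference of 1.60 (SE 0.142, adjusted p = 1.27e-12). Rarb was at 5.56, 6.5 and 11 CPM in cells and at 10.2, 19.8 and 69.6 CPM in EVs (log2 difference 1.67, SE 0.158, adjusted p = 5.58e-12). Rara was at 4.18, 5.82 and 11.5 CPM in cells and at 8.81, 14.1 and 33.9 CPM in EVs (1.20, SE 0.149, adjusted p = 3.86e-09). For all 3 the ranges of cells and EVs overlapped, yet the EV library was above its own cell library in 18 of 18 pairs. Averaged over doses, each of the 3 was higher in EVs in 6 of 6 cultures (exact sign-flip permutation p = 0.03125, the smallest possible). Rarg, the least expressed of the RAR genes, was at 0.43, 0.897 and 1.92 CPM in cells and at 0.546, 2.32 and 6.79 CPM in EVs (1.30, SE 0.22, adjusted p = 1.87e-06), higher in EVs in 15 of 18 pairs. Its EV level rested on 1 to 14 counts a library. Averaged over doses, Rarg was higher in EVs in 5 of 6 cultures, at 0.738 to 5.79 times its cell level (exact sign-flip permutation p = 0.0625). Library totals moved the median of all genes by more than 0.1, to -0.88 on the log2 scale. On that scale Rxra was at 0.79, Rarb at 0.81, Rara at 0.40 and Rarg at 0.42, and Rarg was no longer called (edgeR adjusted p = 0.0589).

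**Figure D1:**
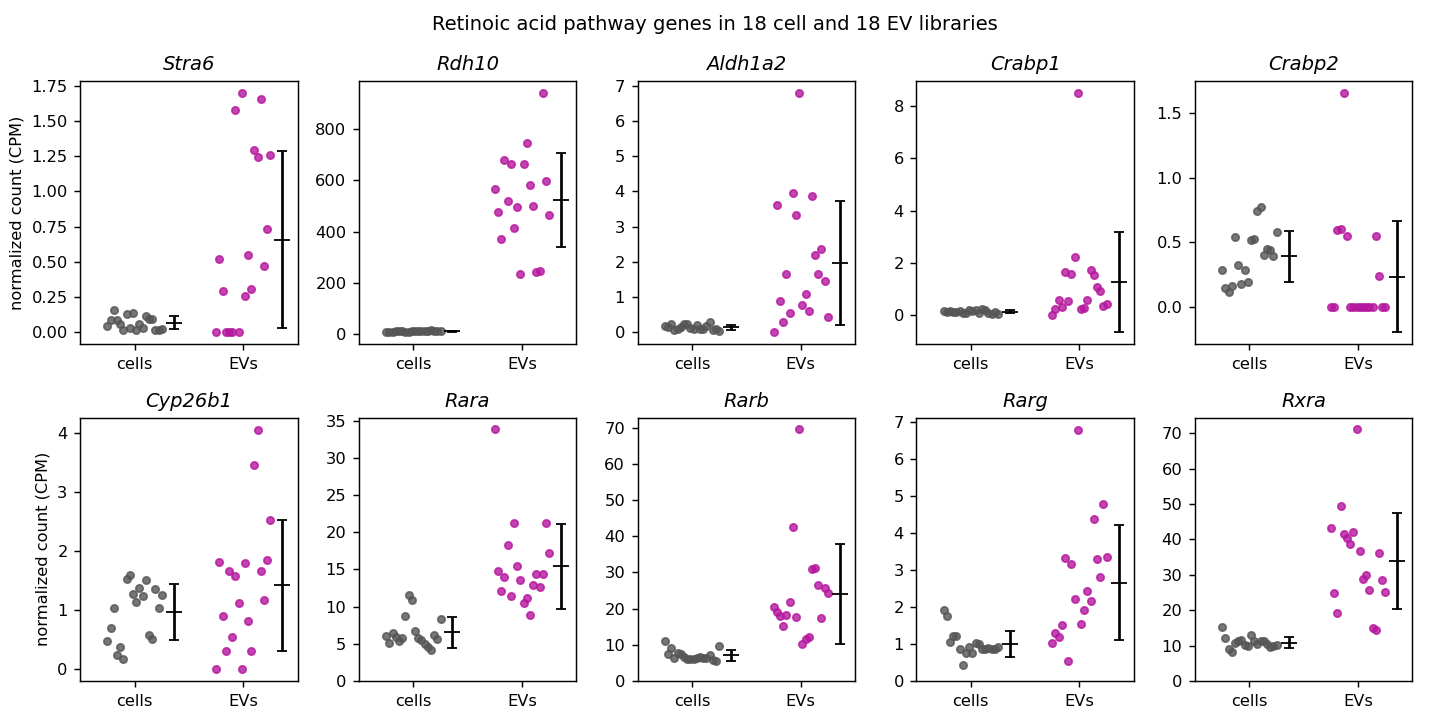
Normalized counts (CPM after TMM scaling, linear axes that differ between panels) of the 10 genes in 18 cell libraries (grey) and 18 EV libraries (purple), each point 1 library, with the mean and SD beside them. Rdh10 in EVs (236 to 941 CPM) lies apart from all cell libraries (at most 13.6 CPM), while the other genes overlap.

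Part of the Rarb exons lies under another gene. Rarb (chr14:5650540-6041094, plus strand, GRCm39) has 8366 exon bases, of which 31.2% lie opposite exons of Top2b, and whether counting used strand is not given in the sources used here. For Rxra (chr2:27566452-27653330) no exon base was shared. For Rara (chr11:98818612-98865768) 8.63% of exon bases lay opposite those of lncRNAs, and for Rarg (chr15:102143373-102165952, minus strand) 2.23%. Rara also shared 441 of its 6402 stretches of 31 bases with transcripts of other genes, 5 of them with structural RNAs.

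Cyp26b1, the enzyme that clears retinoic acid in the brain, was at 0.171, 1.09 and 1.59 CPM in cells and at 0, 1.38 and 4.05 CPM in EVs. The groups overlapped almost wholly, with the EV library higher in 11 of 18 pairs, and the log2 difference of 0.63 (SE 0.34, edgeR adjusted p = 0.0873) did not pass. The difference depended on the sets and on the processing. Without set 4 it was 1.17 and passed (edgeR adjusted p = 0.0193). Without set 3 it was 0.58 (edgeR adjusted p = 0.082) and without set 5 it was 0.13 (edgeR adjusted p = 0.8045). With library totals it was -0.18 and with no filter -0.02, and neither passed. Averaged over doses, EVs were higher in 4 of the cultures (exact sign-flip permutation p = 0.3125). In cells the gene also differed between cultures, with 0.171 to 0.377 CPM in the set 3 male culture and 1.14 to 1.38 CPM in the set 4 male culture.

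The 4 genes left out by the filter had few counts on both sides. Aldh1a2 had 0 to 14 counts in an EV library, Crabp1 0 to 5, Stra6 0 to 4 and Crabp2 0 to 2. Averaged over doses, Aldh1a2 was higher in EVs in 6 of 6 cultures, by 6.65 to 24.6 times, and Crabp1 in 6 of 6, by 1.76 to 33.9 times (exact sign-flip permutation p = 0.03125 for each, the smallest possible). Stra6 was higher in EVs in 5 of 6 cultures. These genes shared this pattern with most features that were as low in cells. Of 2432 features with a mean of 0.0676 to 0.141 CPM in cells, the range these 3 genes span, 92.4% had a higher mean in EVs, with a median ratio of 5.49, and the ratios of Stra6, Crabp1 and Aldh1a2 were 9.66, 9.2 and 13.9. Aldh1a2 shared 490 of its 4649 stretches of 31 bases with transcripts of other genes, 27 of them with structural RNAs. Of protein-coding genes 29.2% shared at least 1 with structural RNAs. Of the Aldh1a2 exon bases 8.44% lay opposite those of a lncRNA. Crabp2, the carrier that hands retinoic acid to the receptors, was at 0.118, 0.395 and 0.775 CPM in cells, and the median EV library had 0 counts. It had 8 counts over all EV libraries, and EVs were above cells in 5 of 18 pairs and in 2 of 6 cultures. With no filter edgeR put it at -1.72 (adjusted p = 0.00243), and DESeq2 at -0.86 (adjusted p = 0.109), which did not pass.

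The rest of the pathway was counted over 5 lists of 78 retinoid and retinoic acid genes. Of these, 76 were in the tables and 49 were tested between EVs and cells. In all 19 were higher in EVs, 27 were lower and 3 did not pass, with a median log2 difference of -0.5 against -0.08 over all genes. Among the 11 testable genes of the retinoic acid synthesis list 2 were higher and 7 lower (median -1.17), so Rdh10 stood opposite to most of them. The list spans several steps, and its genes were not counted by step. The retinol dehydrogenase Rdh11 was at 34 ± 7.41 CPM in cells and at 3.61 ± 1.26 CPM in EVs (SD, n = 18 each), a log2 difference of -3.17 (edgeR adjusted p = 4.27e-21). Rdh5, which makes 11-cis-retinaldehyde in the eye, went from 19.6 ± 12.1 to 2.95 ± 1.26 CPM (-2.67). Rdh1 was higher in EVs by 2.63, at 0.251 ± 0.154 CPM in cells and 1.58 ± 1.2 CPM in EVs.

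Receptors and cofactors fell into 7 higher and 12 lower of 19 tested (median -0.57). The orphan receptor Rorb was lower in EVs by 2.26 on the log2 scale. It had 506 ± 468 CPM in cells and 92.7 ± 13.2 in EVs. Of retinoid transport and storage genes 3 of 4 were higher, and of breakdown and carrier genes 1 of 3. Retinoic acid responsive genes were split, with 6 higher and 5 lower of 12 (median 0.12). The pioneer factor Foxa1 had the largest difference of the lists, 4.72, from 0.978 ± 0.608 CPM in cells to 26.3 ± 16.3 CPM in EVs, and among the genes higher in EVs the receptor tyrosine kinase Ret followed with 2.81. Lrat, Dhrs3, Dhrs9, Cyp26c1, Hoxa5 and Hoxb4 were listed at 0 in all libraries.

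**Figure D2:**
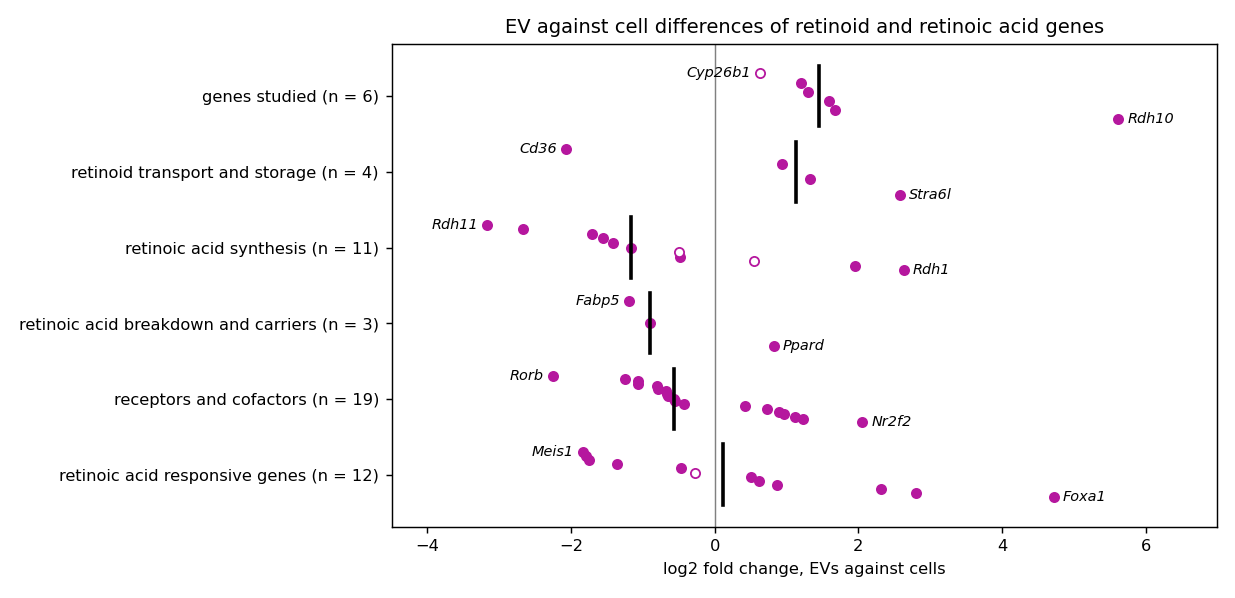
Log2 differences between EVs and cells (edgeR) of the 6 tested genes studied here and of the 49 tested genes of the 5 lists (Foxa1, 4.72, is the highest of them). Each point is 1 gene, filled where the adjusted p was under 0.05, and the black bar is the median of its row (1.45 in the top row, -1.17 for synthesis).

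Ethanol was compared with control within each culture, to ask whether exposure of the cells moved the pathway in cells and in EVs. In cells no member passed the test at either dose. At 320 mg/dL edgeR's quasi-likelihood test with the culture as a block called 0 of 7 members, against 0.0393% of 17792 genes (1525 genes, 8.57%, had an unadjusted p under 0.05, as had 1 of the 7 members). DESeq2 called 94 of 15720 genes and none of the members. At 120 mg/dL the share called was 0%, with 444 genes (2.5%) and none of the members at an unadjusted p under 0.05. The median log2 difference of the 7 members was 0.01 at 320 mg/dL and -0.06 at 120 mg/dL, and that of all genes -0.01 at both.

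The member at an unadjusted p under 0.05 was Rdh10. In control cells it was at 7.25, 6.76 and 11.3 CPM in the female cultures of sets 3, 4 and 5, and at 11.6, 9.81 and 11.4 CPM in the male ones. At 320 mg/dL it was at 8.15, 10 and 13.6 CPM in females and at 11.6, 10.1 and 11.6 CPM in males. All 3 female cultures were thus above their controls, while the male cultures stayed near theirs. The difference was 0.18 (SE 0.0771, 95% interval 0.01 to 0.35, adjusted p = 0.537) and did not pass, and the difference between the sexes did not either (interaction 0.26, unadjusted p = 0.0855, adjusted p = 0.325).

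The receptors were close to control. At 320 mg/dL Rara was at 4.18 to 10.9 CPM against 4.97 to 8.78 in control (0.05, 95% interval -0.19 to 0.28), and Rarb at 5.95 to 9.53 against 5.75 to 11 (0.15, interval -0.12 to 0.42). Rxra was at 8.93 to 11.4 CPM against 8.17 to 15.2 (-0.14, interval -0.41 to 0.12), and Rarg at 0.855 to 1.06 against 0.43 to 1.92 (0.00, interval -0.39 to 0.40). Between cultures the SD at 320 mg/dL and in control was 0.0759 and 0.514 CPM for Rarg, 0.804 and 2.5 for Rxra, 1.41 and 1.98 for Rarb and 2.39 and 1.29 for Rara, so the spread was smaller for 3 and larger for 1. It was not tested. For Crabp2 and Cyp26b1 the intervals were wide, from -0.74 to 0.74 and from -0.81 to 0.38, so a Cyp26b1 level 1.75-fold below control lay within them.

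**Figure D3:**
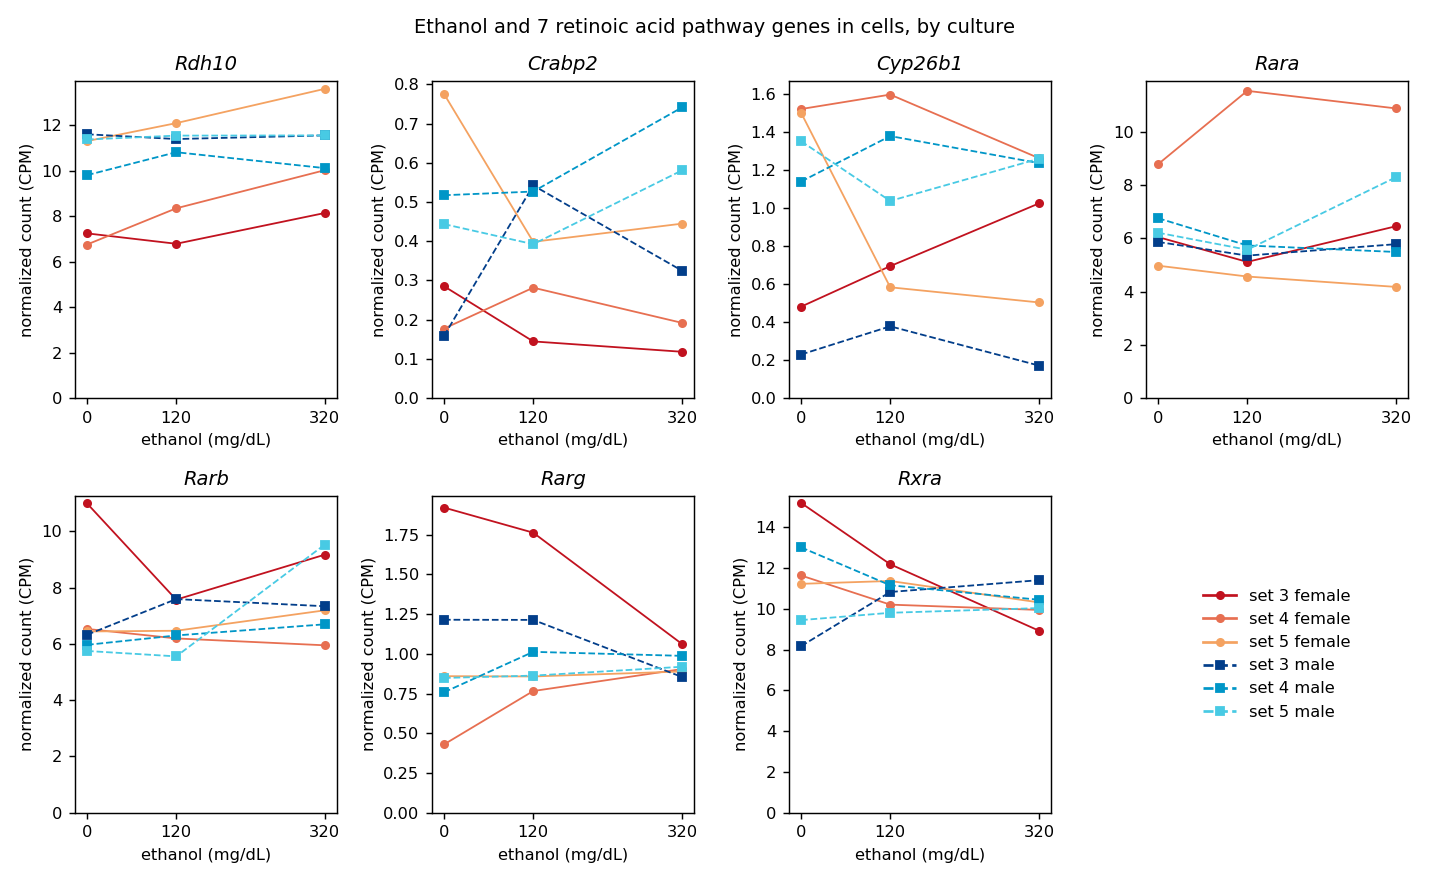
Normalized counts (CPM) in cells of the 7 genes with enough counts, against ethanol concentration (mg/dL). Each line is 1 of 6 cultures, females in warm colours and solid lines, males in blue and dashed lines. Lines go up and down between cultures for every gene, and Rarg draws together at 320 mg/dL (0.855 to 1.06 CPM).

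In EVs 4 members could be tested, and none passed at either dose. edgeR called 0 of 4 at 320 mg/dL, against 0.0842% of 11880 genes (1410 genes, 11.9%, at an unadjusted p under 0.05, and 1 of the 4 members). DESeq2 gave an adjusted p to 4924 genes and called 267 of them, with 1 of the 3 members it kept. At 120 mg/dL edgeR called 0 of 4, against 0.00842% of genes (744, 6.26%, and 1 member at an unadjusted p under 0.05), and DESeq2 called none of the members. The median log2 difference of the 4 was -0.37 at 320 mg/dL and -0.20 at 120 mg/dL, and that of all genes 0.01 and -0.01.

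Rdh10 was again the member with the smallest p at 320 mg/dL. In control EVs it was at 568, 412 and 499 CPM in the female cultures of sets 3, 4 and 5 and at 679, 666 and 941 CPM in the male ones. At 120 mg/dL the same cultures gave 477, 498, 243, 518, 748 and 598 CPM. At 320 mg/dL they gave 371, 236, 247, 663, 583 and 464 CPM. All 6 cultures were lower at 320 mg/dL than in control, by 0.03 to 1.02 on the log2 scale, and 4 of 6 were lower at 120 mg/dL. Per M of library totals 5 of 6 were lower at either dose. Over the cultures the mean difference at 320 mg/dL was -0.61 ± 0.42 (SD, n = 6, exact sign-flip permutation p = 0.03125, the smallest possible, and 0.667 after Benjamini-Hochberg adjustment over 47 such tests). edgeR gave -0.61 (SE 0.199, unadjusted p = 0.00732, adjusted p = 0.215), which did not pass, and DESeq2 gave -0.60 (adjusted p = 0.026), which did. Set 5 carried much of it, since without it the edgeR difference was -0.36 (adjusted p = 0.946).

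Set against its own cell library, Rdh10 in EVs was at 0.58 times the control ratio at 320 mg/dL. The EV:cell ratio differed from control by -0.79 on the log2 scale (SE 0.226, unadjusted p = 0.00278, edgeR adjusted p = 0.525). It did not pass, and neither did any of 15281 genes (0% called, 1000 genes or 6.54% at an unadjusted p under 0.05). DESeq2 put the Rdh10 ratio at -0.80 (adjusted p = 0.0145), among 60 genes called. DESeq2 gave an adjusted p to 2759 genes here, and Rdh10 was the only member among them. At 120 mg/dL the ratio differed by -0.39 (edgeR adjusted p = 1), with 0% of genes called and 524 (3.43%) at an unadjusted p under 0.05, none of the 6 members among them.

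Rxra was at 25.8 to 49.3 CPM in control EVs, at 14.9 to 42.1 CPM at 120 mg/dL and at 14.3 to 71.3 CPM at 320 mg/dL. In 5 of 6 cultures it was lower than control at either dose, and the other culture was the female one of set 4. At 320 mg/dL this rested on the scaling, since per M of library totals 6 of 6 cultures were lower (27.1 against 36 in the female culture of set 4). The Rxra difference at 120 mg/dL was -0.41 (SE 0.185, edgeR unadjusted p = 0.0422, adjusted p = 0.791). At 320 mg/dL it was -0.365 (SE 0.185, edgeR unadjusted p = 0.0668, adjusted p = 0.455), and leaving out a set gave -0.68 to -0.19. Rara was at 10.5 to 33.9 CPM in control EVs and at 8.81 to 17.2 CPM at 320 mg/dL, lower in 5 of 6 cultures (-0.38, SE 0.211, edgeR adjusted p = 0.522). At 320 mg/dL 6 of 6 cultures were lower than at 120 mg/dL, by 0.18 to 0.67 (exact sign-flip permutation p = 0.03125, 0.667 after adjustment over the 47 tests), and 5 of 6 per M of library totals. Rarb was at 10.2 to 42.6 CPM in control EVs and at 12.2 to 69.6 CPM at 320 mg/dL, higher in 4 of 6 (0.27, SE 0.216, edgeR adjusted p = 0.7). The library at 69.6 CPM was the set 4 female one with the lowest scaling factor. Per M of its own total it was at 26.5, below the 39.7 of its control, and it held 41 Rarb counts. With library totals the Rarb difference was -0.04.

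**Figure D4:**
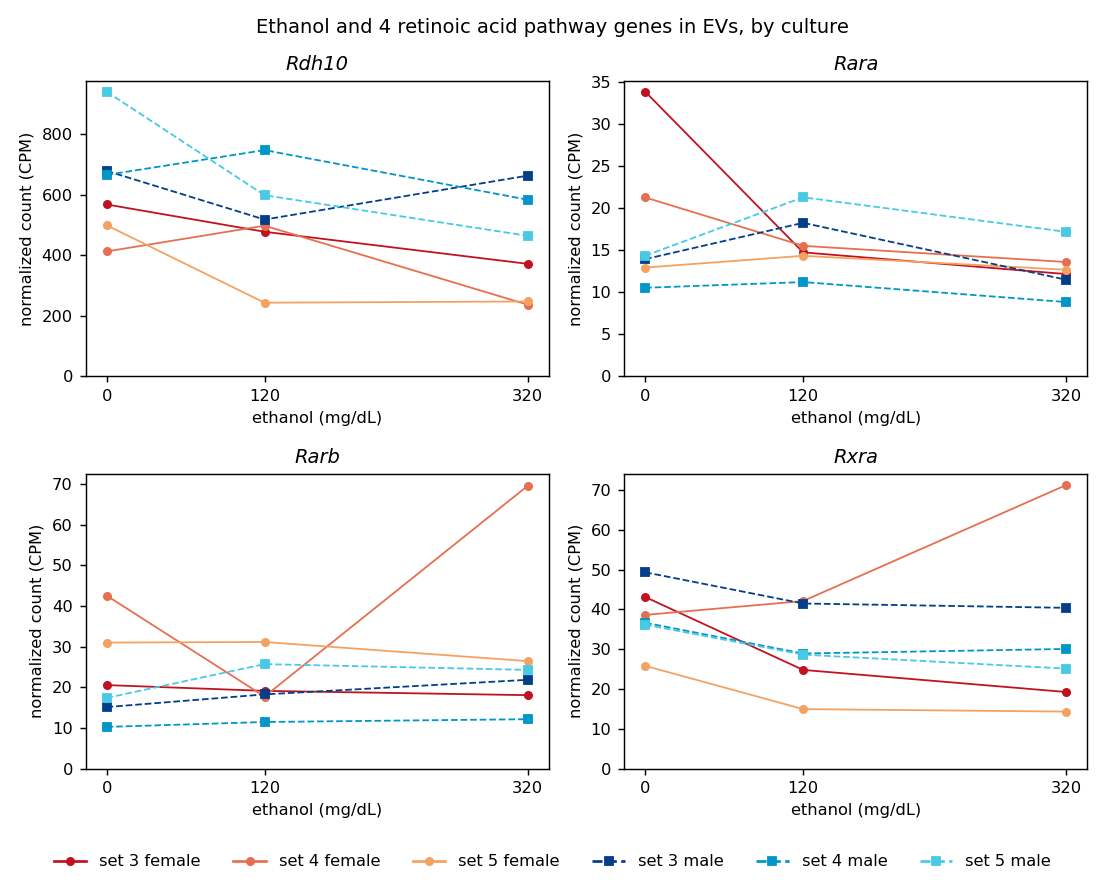
Normalized counts (CPM) in EVs of the 4 genes with enough counts, against ethanol concentration (mg/dL). Each line is 1 of 6 cultures, females in warm colours and solid lines, males in blue and dashed lines. Rdh10 is lower at 320 mg/dL than in control in all 6 (in 5 of 6 per M of library totals). The set 4 female line of Rarb and Rxra ends at 69.6 and 71.3 CPM, above its control on this scale and below it per M of library totals (26.5 and 27.1 against 39.7 and 36).

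Of the pathway lists, 0 of 53 genes tested in cells and 0 of 39 tested in EVs passed at either dose by edgeR. At an unadjusted p under 0.05 there were 5 of 53 in cells at 320 mg/dL and 1 at 120 mg/dL, and in EVs 7 and 5 of 39. The shares of all genes at that level were 8.57% and 2.5% in cells and 11.9% and 6.26% in EVs. The median over the lists at 320 mg/dL was 0.00 in cells and 0.11 in EVs.

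Females and males were compared within each location, since the study asked whether the RNA of EVs differs by sex. The 9 libraries of a sex came from 3 cultures, and the p-values treat them as independent. In cells edgeR's quasi-likelihood test called 5.83% of 17052 genes and 0 of 7 members (none at an unadjusted p under 0.05, as against 22.3% of genes). Rdh10 was closest, at 6.76, 8.35 and 13.6 CPM (lowest, median and highest) in female cells and at 9.81, 11.4 and 11.6 CPM in male cells. The groups overlapped, with the set 5 female culture at the male level. The difference was -0.29 (SE 0.138, adjusted p = 0.231). Crabp2 was at 0.118 to 0.775 CPM in females and 0.159 to 0.741 CPM in males (-0.57, edgeR adjusted p = 0.348), and the receptors differed by 0.05 to 0.15.

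In EVs 2 of 4 members passed, against 11.1% of 11037 genes (7.03% higher in females and 4.06% lower). Rdh10 was lower in females, at 236, 412 and 568 CPM against 464, 663 and 941 CPM in males. Within a set and dose the female library was below the male one in 9 of 9 pairs, although the groups overlapped. The log2 difference was -0.66 (SE 0.18, adjusted p = 0.0295). Rarb was higher in females, at 17.7, 26.4 and 69.6 CPM against 10.2, 17.4 and 25.7 CPM in males, and in 8 of 9 such pairs (0.89, SE 0.282, edgeR adjusted p = 0.0498). Both calls depended on treating libraries as independent. With the counts of a culture summed over doses, 3 cultures against 3, the differences were -0.80 and 0.81 with edgeR adjusted p = 0.333 and 0.325, and edgeR called 0 of 14847 genes (2229 at an unadjusted p under 0.05). Without the 6 libraries under 2 M, which include all 3 of the set 4 female culture, the differences were -0.72 and 0.65 and neither passed (edgeR adjusted p = 0.139 and 0.189). Rarb was at 0.32 without set 4 (adjusted p = 0.381), less than the 0.89 with it. Rara (0.30) and Rxra (-0.07) did not pass. DESeq2 called 2789 of 18551 genes, among them Rdh10 and Rarb and also Aldh1a2 (1.47, DESeq2 adjusted p = 0.0333), which had 0 to 14 counts in an EV library.

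Summed levels of 9 marker lists were set side by side between the sexes, with no test. Only the choroid plexus sum in cells was apart, and in EVs all 9 overlapped. Endothelial and pericyte markers summed to 3.55 to 23.8 CPM in female EVs and 2.42 to 5.44 CPM in male EVs. Choroid plexus markers summed to 5.52 to 30.5 CPM in female cells and 1.02 to 2.61 in male cells, with Otx2 as the only one of 5 at 1 CPM or more at the median, and the astrocyte sum was 19.7 to 93.2 CPM in female and 48.4 to 248 CPM in male cells. Neuron markers summed to 17.4 to 122 CPM in female and 9.18 to 30 CPM in male cells, and meningeal markers to 8.67 to 23.3 and 12.2 to 36.1 CPM. Their part in the differences above was not tested.

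**Figure D5:**
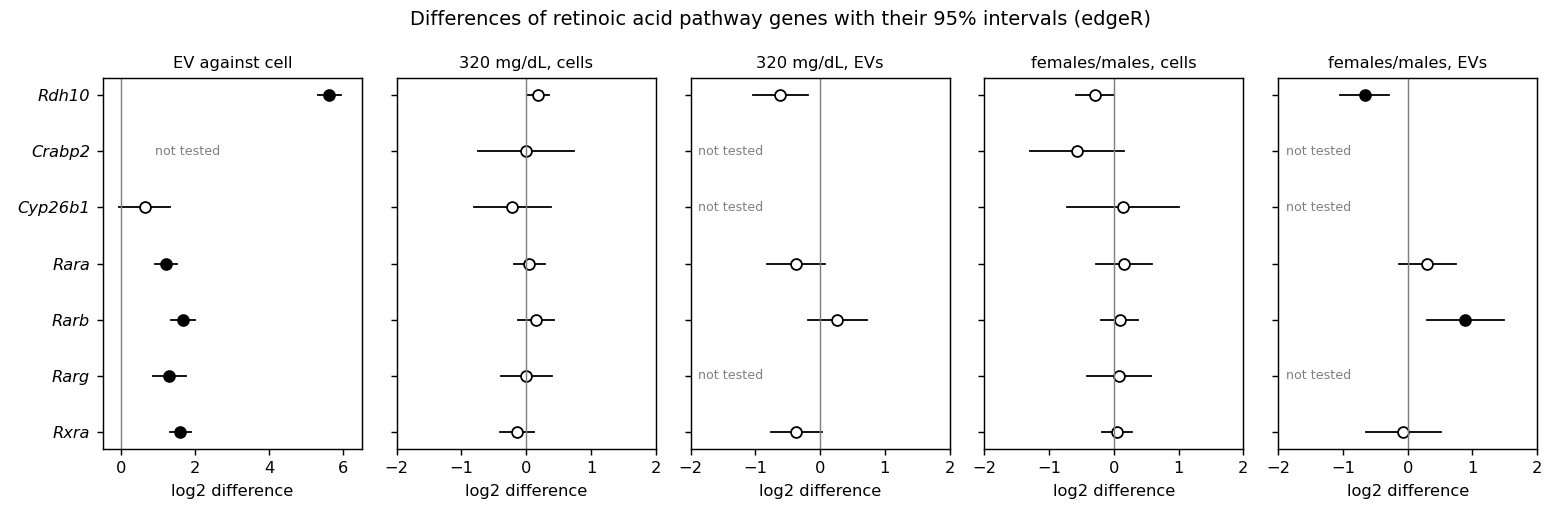
Log2 differences (points) with 95% intervals (lines) from edgeR in 5 comparisons, with positive values higher in EVs, at 320 mg/dL or in females. Points are filled where the adjusted p was under 0.05, which holds for Rdh10 (5.62) and the 4 receptors between EVs and cells and for Rdh10 (-0.66) and Rarb (0.89) between the sexes in EVs.

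Of the pathway lists, 1 of 51 tested genes was higher and 3 were lower in female cells, where 3.2% of all genes tested were higher and 2.63% lower. Aldh1a1, a retinaldehyde dehydrogenase, was at 0.989 ± 0.192 CPM in females and 3.54 ± 2.33 CPM in males (SD, n = 9 each, log2 difference -1.88, edgeR adjusted p = 0.019). The nuclear receptors Nr2f1 (-0.60) and Nr2f2 (1.17) went opposite ways, and the acetyltransferase gene Kat2b was at -0.31. In EVs 4 of 34 were higher in females and 1 was lower, beside 7.03% and 4.06% of all genes tested. The lower one was Rxrb, another retinoid X receptor, at 12.6 ± 3.57 CPM in females and 24.5 ± 4.17 CPM in males (-0.82). Higher in females were the homeobox gene Meis1 (0.90) and the cofactor genes Trim24 (0.54), Kat2b (0.50) and Ncoa1 (0.37), the last outside the naming rule and given to complete the count. With counts summed over doses none of these 9 calls remained (edgeR adjusted p of 0.475 to 0.752 in cells and of 0.315 to 0.419 in EVs), while all 9 differences kept their direction.

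Across the 18 cell libraries the members did not vary together as a group. Pearson correlations of log2 CPM between pairs of the 6 genes tested between EVs and cells ran from -0.425 (Rarg with Cyp26b1) to 0.541 (Rarb with Rarg). Libraries of a culture share their cells, and no test was made. Among the 4 genes tested within EVs, Rarb and Rdh10 had the most negative value, -0.688, and Rxra and Rdh10 the most positive, 0.347. The EV libraries were of both sexes, with Rdh10 lower and Rarb higher in females. The set 4 female library at 320 mg/dL held both the highest Rarb and the lowest Rdh10 level (69.6 and 236 CPM). The part of sex and of this library in the -0.688 was not tested. Of all 17791 other genes kept in cells, the most like Rdh10 were Snx13 (r = 0.937), Rexo5 (0.912) and Ap3m2 (0.903), over 18 libraries. For Rara they were Synj2 (0.895), Spata5 (0.893) and Gm6712 (0.862), and for Rarb 9030622O22Rik (0.799), Prkag2 (0.796) and Nbeal2 (0.768). Rxra was most like Ctif (0.908), Prex1 (0.868) and Mdga2 (0.854), and Rarg most like Flywch1 (0.87), Fbxl19 (0.859) and Abhd15 (0.857). Crabp2 was most like Wdr7 (0.927), Lmbr1 (0.914) and Gm29883 (0.91), and Cyp26b1 most like Asxl3 (0.888), Zfp57 (0.877) and Gm30375 (0.849). No member was among the 3 genes most like another. In EVs, a likeness added after the data were seen, Rdh10 was nearest to Wdr4 (0.951), Rcc2 (0.947) and Gskip (0.945) among 11879 genes.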

How the data were processed

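RNA of 18 cell and 18 EV libraries, depleted of ribosomal RNA and prepared with a stranded kit, was sequenced in 1 pool. Reads were trimmed, deduplicated and aligned to mm39 with STAR by the authors, and HTSeq was used for counting. The deposited tables hold whole counts by gene and library without normalization. The annotation and the strandedness option used for counting are not given in the sources used here.

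Counts were analysed as deposited with R 4.3.3 and edgeR 4.0.16: filterByExpr (minimum count 10, minimum total 15), TMM and quasi-likelihood F tests over all genes. The threshold was 0.05 after Benjamini-Hochberg adjustment. Terms were sex and dose between EVs and cells, dose between the sexes, the culture as a block for ethanol, and the pair of EV and cell library with a location by culture term for the EV:cell ratio. DESeq2 1.42.0 was an alternative. Single genes were also tested over the 6 cultures by exact sign-flip permutation. The edgeR tests were also run on simulated data, with libraries drawn independently. Likeness between libraries of a culture was not simulated, so those runs say nothing about its effect on the p-values. CPM are counts per M (1000000) of the TMM-scaled total, and log2 CPM used a prior count of 1. Positions and overlaps are from GENCODE on GRCm39, promoters from RefSeq on GRCm38.p6. Figures were drawn with matplotlib 3.10.9.

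Groups were taken from the sample labels. The members, lists and tests were chosen with earlier results of these data known. Named genes are the 10 members, up to 3 list genes per comparison and direction with the largest called change, and the 3 genes most like each member in cells. Aldh1a3 was named outside this rule, for its level in cells. Alternatives were other scalings, no filter, DESeq2, leaving out each set, the block added or removed, controls alone, counts summed over doses, and leaving out the 6 EV libraries under 2 M counts, the last chosen after seeing the data. At an EV total of 1 M, 1 count is 1 per M, and counting error there is accordingly large.

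Libraries pair by design: the EV and cell library came from the same flasks, doses from 1 culture, and females and males of a set from 1 pregnancy. Median correlations of deviations from the group means of location, sex and dose were 0.679 (cells) and 0.196 (EVs) between ethanol and control, 0.072 between EV and cell library, and 0.376 (cells) and 0.106 (EVs) between females and males. No 2 libraries held identical counts.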

Additional observations from a re-analysis of the deposited data

Results flagged for a closer look

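In groups of 6 libraries of a location and dose, 33 groups of the testable members were searched for a library standing apart by Dixon's criterion (limit 0.625 for 6 libraries), and 3 were found. Chance alone flags about 1 in 20 groups. Rara in cells at 120 mg/dL was at 11.5 CPM in the set 4 female culture, while the other 5 cultures lay between 4.57 and 5.73 CPM, and the same culture was the highest at 0 and 320 mg/dL as well (8.78 and 10.9 CPM). Rarb in control cells was at 11 CPM in the set 3 female culture against 5.75 to 6.53 CPM in the others. Rarb in EVs at 320 mg/dL was at 69.6 CPM in the set 4 female library against 12.2 to 26.4 CPM in the others. That library held 41 Rarb counts in 1.55 M and had the lowest scaling factor of all (0.383). Per M (1000000) of its total it was at 26.5, and the set 3 male library was then next at 24.9.

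No member differed between the sexes in its response to ethanol after adjustment, and for none did all 3 female cultures go one way and all 3 male cultures the other. At an unadjusted p under 0.05 stood Crabp2 (-1.30, adjusted p = 0.253), Rarb (-0.51, 0.254) and Rxra (-0.49, 0.258) in cells at 320 mg/dL, and Rara (-0.88, adjusted p = 1) in EVs at 120 mg/dL (edgeR interaction, females minus males), where 0% of all genes passed and 18.6% and 4.05% stood at that level.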

How the results depend on the processing

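Of 455 recomputed values of single members, 439 stayed on their side of the threshold, 13 lost and 3 gained a call, and none reversed a call; 60 values of uncalled members changed sign. Between EVs and cells, the number of called members went from 5 to 9 with no filter and to 8 with DESeq2, where the 4 rarely counted genes are tested too, and leaving out a set gave 5 to 6. The replicate block of EV and cell pairs left 5. With DESeq2, 1 of 3 members with an adjusted p (Rdh10) passed at 320 mg/dL in EVs. In the EV:cell ratio at 320 mg/dL the only member with an adjusted p (Rdh10) passed. With no replicate block for ethanol, 0 passed. Of the 2 members called by sex in EVs, 0 remained with library totals, with no filter, with counts summed over doses and, added after seeing the data, without the 6 EV libraries under 2 M, and 0 to 2 when a set was left out. Their differences stayed in direction throughout, Rdh10 at -0.83 with library totals and -0.86 with no filter. DESeq2 called 3 of 9 (Aldh1a2 beside the 2), where it called 2789 of 18551 genes. The replicate block of the pregnancy kept 2 and changed no member's call, where it called 2993 of 11037 genes. For ethanol, leaving out a set gave 0 members.

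Over all genes, calls ranged from 10323 (controls alone) to 23256 (DESeq2) between EVs and cells (12302 in the reported fit), from 7 (summed over doses) to 2953 (pregnancy block) by sex in cells (994), and from 0 (summed) to 2993 (block) in EVs (1224). For ethanol they reached 94 (DESeq2) at 320 mg/dL in cells (7) and 267 (DESeq2) in EVs (10), and at 120 mg/dL 4 (DESeq2, 0) and 157 (no filter, 1). The ratio reached 67 and 56 (no filter, 0 at either dose). The cause was not tested. In EVs the depth limits Cyp26b1, Rarg and the 4 rarer genes, which the filter left out of the edgeR tests of ethanol and sex.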
